A study of Mus musculus with 3 samples.

Results

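Peak-dense domains are stretches of the genome in which many binding sites of the same transcription factor lie close together. Here they are regions of the mouse autosomes with at least 5 Tbr2 peaks, each no more than 25 kb from the next. Peaks of the Tbr2 list on chromosomes 1 to 19 were sorted by start, neighbours were joined when the gap between them was 25 kb or less, and groups of 5 or more peaks were kept. This gave 163 domains with 997 member peaks, out of 14321 autosomal Tbr2 peaks and 14539 in the whole list. Members made up 6.96% of the autosomal peaks and held 8.24% of the 727924 tags counted in them. The members were chosen by the positions of Tbr2 peaks, so their number, spacing, tags and fold changes are given as a description. The rule uses no Neurog2 peaks, but it was set with earlier results of these data known.

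Tbr2 is the T-box transcription factor encoded by Eomes, and in the developing cortex it marks intermediate progenitors, the dividing cells that lie between radial glia and neurons. Neurog2 is a proneural basic helix-loop-helix factor of the same lineage, expressed in radial glia as they commit to the neuronal fate and in early intermediate progenitors. Transcription factors often bind several elements around 1 gene, and dense groups of sites are a known feature of loci with several enhancers. A ChIP-seq peak marks where fragments pulled down with an antibody pile up, and its tag number counts the sequenced fragments assigned to it.

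The study profiled cerebral cortices of wild-type C57BL/6 embryos at E14.5, in 3 libraries of doubly crosslinked chromatin. They were a ChIP with an antibody against Tbr2, a ChIP with an antibody against Neurog2 and an input library without antibody, for which no file was used here. With 1 library for each factor there is no replicate error to give and no test between groups was possible. The cortex is a mixture of cell types, and neighbouring peaks, or a Tbr2 and a Neurog2 peak at the same place, need not be occupied in the same cells. Library depth is unknown. The lists held 2640 Neurog2 peaks, of which 2571 were autosomal, and at least 15 tags stood behind every Tbr2 peak and 9 behind every Neurog2 peak. The 218 Tbr2 peaks on X and Y formed no group above 4 peaks. Positions are mm9, counted from 1, and are given without gene names because no mm9 annotation was used here.

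The domains had a median span of 50.2 kb, with quartiles of 33.9 and 62.3 kb and a range from 11.2 to 141.7 kb. Groups of exactly 5 peaks were the most frequent, with 76 domains. There were 42 domains of 6 peaks, 24 of 7 and 21 of 8 or more, up to 13. Together they spanned 8324.4 kb, of which the peaks themselves covered 821.2 kb or 9.87%. The domains are therefore mostly sequence between peaks. Neighbouring members were separated by a median gap of 7.11 kb, with quartiles of 2.31 and 15.03 kb, and 126 of 834 gaps (15.1%) were shorter than 1 kb. When peaks less than 1 kb apart were merged before stitching, 120 domains had 5 or more peaks.

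At the edges of the rule, the longest gap inside a domain was 24982 bp and the shortest gap left unjoined on an autosome was 25002 bp. The group nearest to qualifying lay on chromosome 1 from 133314464, where 2 and 3 peaks were kept apart by a gap of 25057 bp. Groups of exactly 4 peaks, just below the limit, numbered 193 and had a median span of 29.6 kb, against 39.8 kb for the 76 domains of 5.

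**Figure D1:**
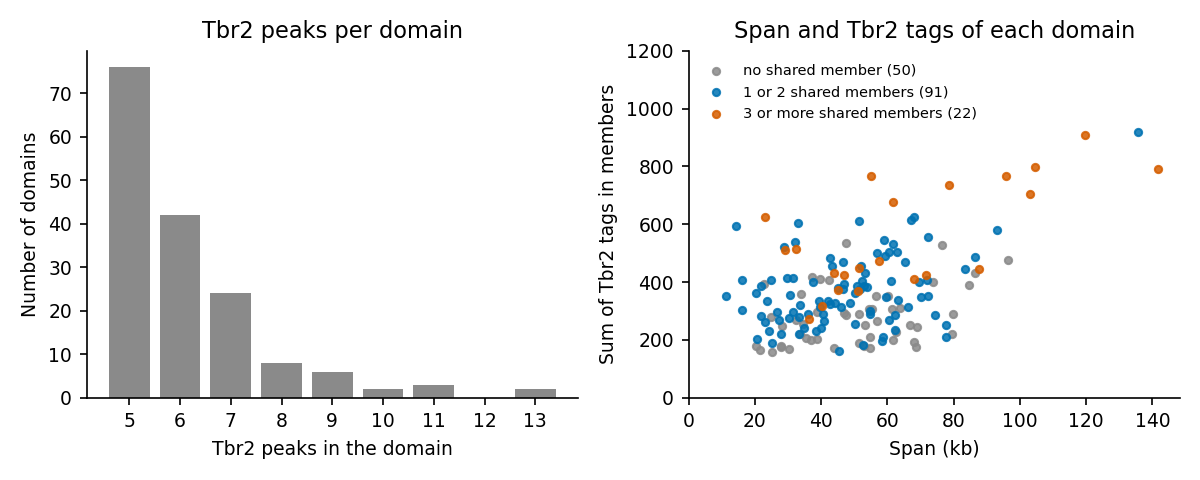
Left, number of domains (y axis) by the number of Tbr2 peaks they hold (x axis), falling from 76 domains of 5 peaks to 2 of 13. Right, each point is a domain, with its span in kb (x axis) and the sum of Tbr2 tags of its members (y axis), coloured by how many members overlap a Neurog2 peak; the 50 domains with no such member have spans of 20.3 to 96.3 kb and no more than 536 tags.

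Domains were found on all 19 autosomes, from 3 on chromosome 10 to 18 on chromosome 5. Per 100 Mb of the span between the first and last peak of a chromosome there were 2.36 domains on chromosome 10 and 12.1 on chromosome 5. Members were 2.34% of the Tbr2 peaks of chromosome 10 and 11.6% of those of chromosome 5. Chromosomes 7 and 14 also held a large part of their Tbr2 peaks in domains, 11.2% and 9.55%.

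The domains with the most peaks were long, and the strength of binding varied from member to member. Both domains of 13 peaks were on chromosome 2. The first, at 146084645 to 146189156, spanned 104.5 kb, and its members held, from left to right, 59, 39, 97, 79, 120, 49, 28, 69, 67, 88, 29, 26 and 48 tags. Neurog2 peaks overlapped 6 of them, those with 97, 79, 120, 69, 88 and 29 tags, so the outermost members on both sides were Tbr2 sites without Neurog2. The second, at 29240708 to 29382371, was the widest of all at 141.7 kb, with 110, 108, 27, 33, 54, 27, 34, 90, 93, 77, 64, 42 and 31 tags. Here Neurog2 overlapped the first member and 4 in the right-hand part, and the member with 90 tags held 2 Neurog2 peaks.

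Domains of 11 peaks lay on chromosomes 7, 9 and 4. The chromosome 7 domain, at 144373271 to 144508822, had the highest sum of Tbr2 tags of all, 918, in members of 18, 185, 63, 174, 107, 136, 78, 30, 25, 37 and 65 tags. Only the member with 37 tags overlapped a Neurog2 peak, of 14 tags, and the strongest 4 members, with 107 to 185 Tbr2 tags, overlapped none. The chromosome 9 domain, at 57840877 to 57960555, had nearly the same sum but 5 members with Neurog2. Its members held 28, 42, 159, 61, 96, 72, 43, 73, 138, 160 and 38 tags, and Neurog2 lay on those with 42, 159, 61, 96 and 160.

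On chromosome 4, at 119899576 to 119978052, members held 26, 85, 36, 73, 41, 61, 54, 57, 33, 29 and 241 tags. The strongest stood at the right end, with a fold change of 49.0 and a Neurog2 peak of 40 tags. The other shared members, with 85, 73, 41, 61 and 33 Tbr2 tags, held 77, 97, 22, 21 and 43 Neurog2 tags, so 3 of these 5 had more Neurog2 tags than the strongest and 2 had fewer.

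The remaining 3 of the 8 domains described here had 10 or 9 peaks, and Neurog2 lay on 0 to 3 of their members. On chromosome 14, at 80272235 to 80337456, 10 members held 21 to 110 tags and Neurog2 overlapped 1, of 52 tags. On chromosome 18, at 69697444 to 69783847, 10 members held 27, 46, 37, 51, 24, 21, 35, 30, 128 and 31 tags, and no Neurog2 peak lay in the domain. On chromosome 19, at 28432243 to 28528154, 9 members held 26, 85, 38, 97, 103, 223, 18, 125 and 52 tags, and 3 of the strongest 4, with 97, 223 and 125 tags, overlapped Neurog2. It is 1 of 6 domains with 9 peaks, and the one with most Tbr2 tags among them.

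**Figure D2:**
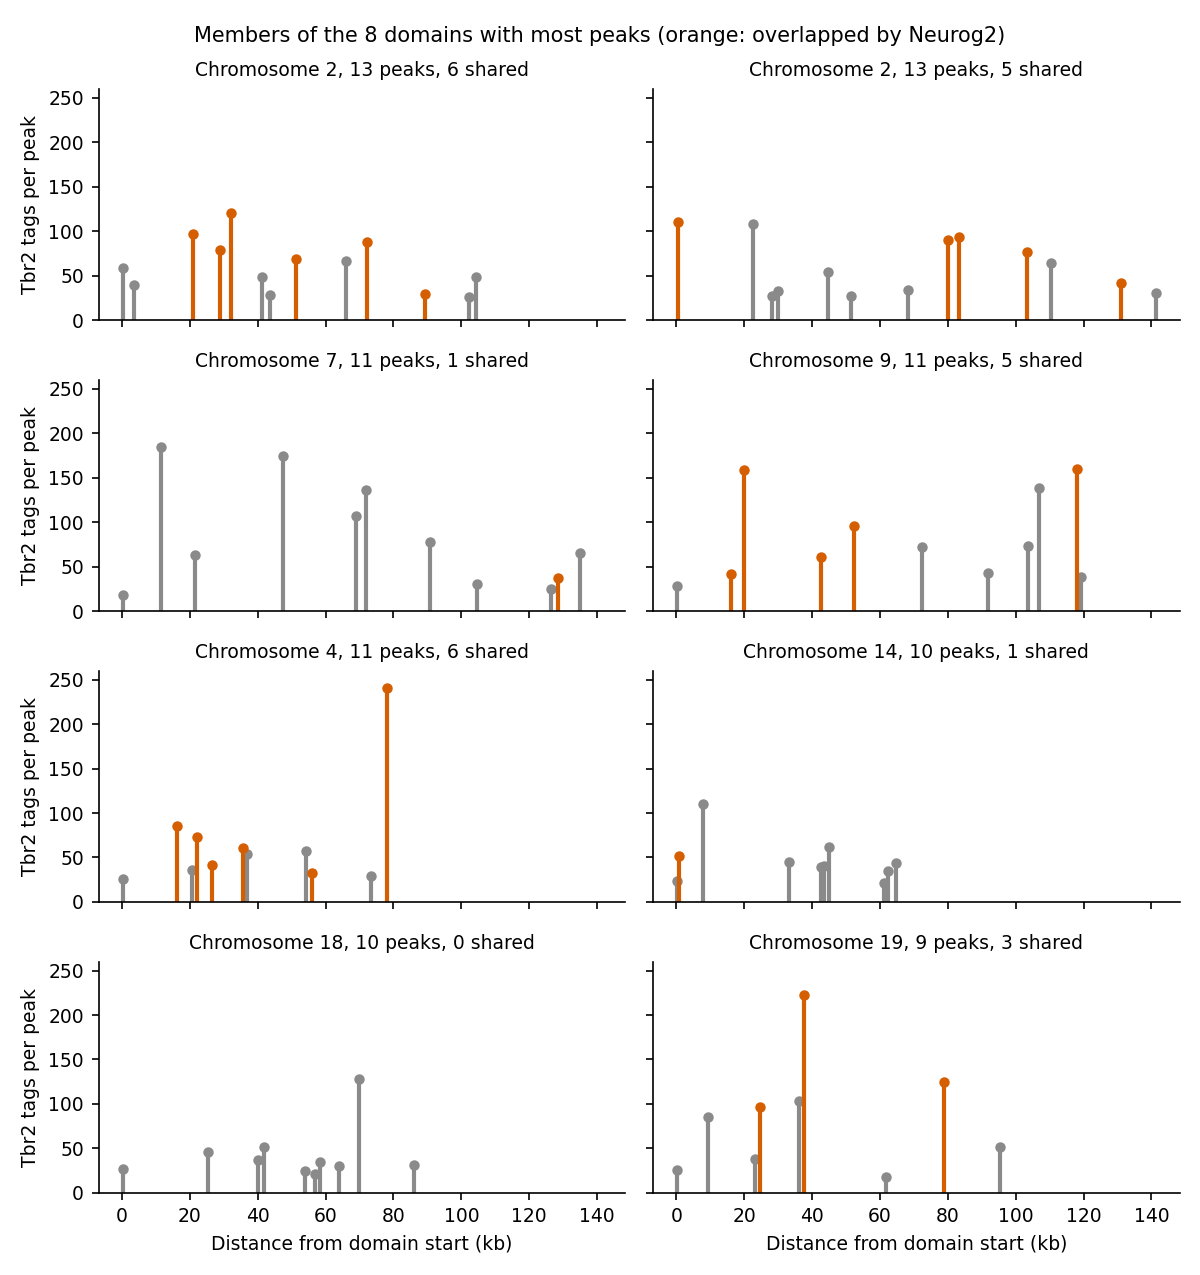
Each panel is 1 of the 8 domains with the most Tbr2 peaks, in the order of the text, with each member at its distance in kb from the domain start (x axis) and its Tbr2 tags (y axis, the same scale in all panels). Orange members overlap a Neurog2 peak and grey ones do not; the number of orange members ranges from 0 of 10 on chromosome 18 to 6 of 11 on chromosome 4.

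The most compact domains packed 5 peaks into 15.99 kb or less. The narrowest, on chromosome 13 at 84191663 to 84202859, held members of 43, 154, 90, 32 and 33 tags within 11.2 kb, and the strongest carried a Neurog2 peak of 63 tags. On chromosome 9, at 60720837 to 60735084, members of 41, 97, 213, 187 and 57 tags lay within 14.2 kb, with Neurog2 on the strongest. On chromosome 16, at 62676479 to 62692468, Neurog2 lay on the members of 55 and 67 tags and not on the strongest, of 88.

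Within a domain, peaks differed several-fold in tags. The strongest member had a median of 110 tags (95% order-statistic interval 99 to 123), the weakest a median of 25 (24 to 26), and their ratio had a median of 4.24 (3.78 to 4.61), with quartiles of 3.02 and 5.79. The strongest held a median of 32.5% of the tags of its domain, from 13.9% to 57.1%. It exceeded the second by a median factor of 1.46, and the second was its direct neighbour in 58 of 163 domains. In 152 of 163 domains the weakest member was below the autosomal median of 39 tags. The strongest was at or above 94 tags, the 90th percentile of the autosomal list, in 103. In 1 domain no member reached the autosomal median. The weakest and strongest of 5 or more peaks tend to fall on either side of a list median wherever they are taken. These counts were not made for peaks outside domains. In runs of 5 peaks there, described below, the weakest had an upper quartile of 27 tags and the strongest a median of 81.

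The highest ratio, 14.4, was on chromosome 17 at 29847112 to 29875986, where a member of 260 tags at the left end was followed by 6 of 18 to 66 tags. On chromosome 5, at 99907873 to 99994461, the ratio was 12.4. Its members held 249, 45, 28, 32, 20 and 114 tags, and Neurog2 lay on the member of 45 and not on that of 249. The chromosome 19 domain described above had a ratio of 12.4 as well. At the other extreme, 5 members on chromosome 2 at 164894179 to 164946845 held 47, 36, 34, 35 and 32 tags, a ratio of 1.47. On chromosome 14 at 35757651 to 35782871 the members held 26 to 41 tags, a ratio of 1.58. On chromosome 2 at 134874806 to 134936384 the 7 members held 21 to 37 tags, a ratio of 1.76. This last domain was the one whose members were all below the autosomal median, and it had no Neurog2 peak.

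Neighbouring peaks outside the domains also differed several-fold. Autosomal Tbr2 peaks outside the domains were cut into 2657 successive runs of 5, with a median span of 512.3 kb. The strongest-to-weakest ratio in these runs had a median of 3.39 (3.31 to 3.47), against 3.72 (3.24 to 4.30) in the 76 domains of exactly 5 peaks. The share of the tags held by the strongest was 34.5% in the runs and 34.9% in the domains. Levels were higher at both ends of the order, with medians of 95.5 tags for the strongest member in domains and 81 in runs, and 26 and 23 for the weakest.

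**Figure D3:**
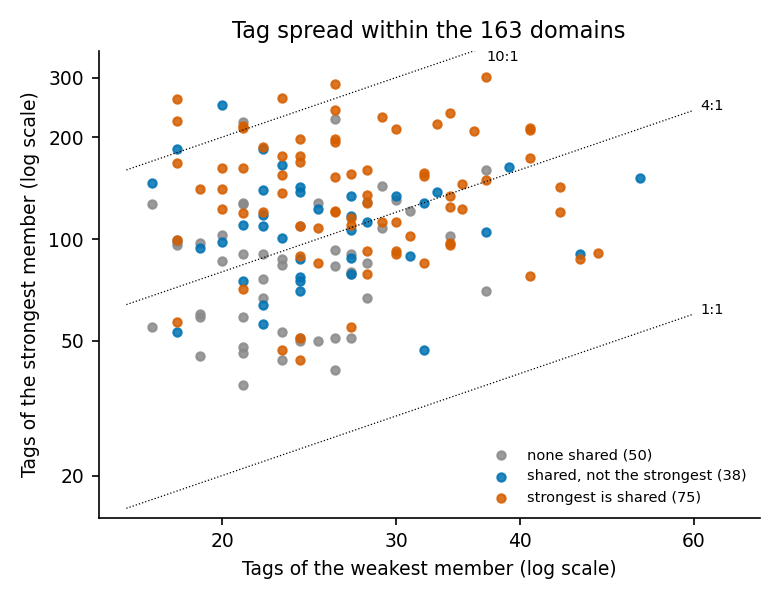
Each of the 163 domains is a point, with the tags of its weakest member (x axis, log scale) and of its strongest (y axis, log scale); dotted lines mark ratios of 1, 4 and 10. Colour shows whether Neurog2 overlaps the strongest member (75 domains), only other members (38) or none (50), and the grey points lie mainly in the lower part.

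Over all members, the median was 47 tags (44 to 49), against 38 (38 to 39) for the other autosomal peaks and 36 (36 to 37) for isolated peaks, which have no other Tbr2 peak within 25 kb. Median widths were 755 bp for members and 687 bp for isolated peaks. Fold changes lay closer together, with medians of 9.86 (9.46 to 10.3) and 9.53 (9.40 to 9.53). Members at or above the 90th percentile of tags were 157 of 997, 15.7% (95% Wilson interval 13.6 to 18.1), against 9.81% (9.32 to 10.3) of the other autosomal peaks. The intervals here and below cover counting error over peaks or domains only, and peaks of 1 domain are neighbours, so intervals over peaks are too narrow.

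The strongest member had no fixed place. It stood at the left or right end in 61 of 163 domains, 37.4% (30.4 to 45.1), and 32.7% of all members stood at an end. Its width had a median of 1050 bp and its fold change a median of 18.5, and it was also the member with the highest fold change in 103 domains. Tags of the other members did not fall with distance from it. Members within 2 kb of the strongest had a median of 44 tags (32 to 61, n = 39), those at 5 to 10 kb 39 (34 to 49, n = 111), those at 25 to 50 kb 42 (38 to 45, n = 252) and those farther away 37 (34 to 45, n = 98).

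The second question was how Neurog2 was distributed over these domains. A member was called shared when a Neurog2 peak overlapped it by at least 1 bp. Of the 997 members 207 were shared, 20.8% (18.4 to 23.4), beside 14.0% of all autosomal Tbr2 peaks and 13.5% (13.0 to 14.1) of those outside domains. The share was 11.3% (10.6 to 12.1) in isolated peaks, 14.9% (13.7 to 16.1) in groups of 2, 18.1% (16.4 to 19.98) in groups of 3 and 17.9% (15.3 to 20.7) in groups of 4. Within the domains it did not climb further with size, at 22.1% (18.2 to 26.6) for 5 peaks, 16.7% (12.6 to 21.8) for 6, 24.4% (18.5 to 31.4) for 7 and 20.3% (15.3 to 26.5) for 8 or more.

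Median Tbr2 tags also rose with group size up to the domains, though not in step with the share throughout. In groups of 1, 2, 3, 4 and 5 or more peaks the median tags were 36, 40, 42, 43 and 47. Within the domains they were 45, 46, 49 and 45 for 5, 6, 7 and 8 or more peaks. Among peaks of 15 to 27 tags 1.80% of members (0.613 to 5.15) and 3.18% of other autosomal peaks (2.64 to 3.82) were shared. At 28 to 39 tags the shares were 6.52% (3.99 to 10.5) and 6.76% (5.98 to 7.63). At 40 to 60 tags they were 17.6% (13.4 to 22.6) and 12.9% (11.8 to 14.1). At 61 tags and above they were 42.3% (37.2 to 47.6) and 33.1% (31.5 to 34.8). When the other autosomal peaks were weighted to the tag deciles of the members, a weighting chosen after seeing the data, 17.3% of them were shared. The same weighting by deciles of width gave 16.8%, by tags per 100 bp 16.04% and by fold change 14.3%. The difference between members and others, 7.22 percentage points without weighting, was smaller under each of these weightings, most by tags and least by fold change. With 1 library per factor and neighbouring peaks in each domain, no test of the remainder was made.

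**Figure D4:**
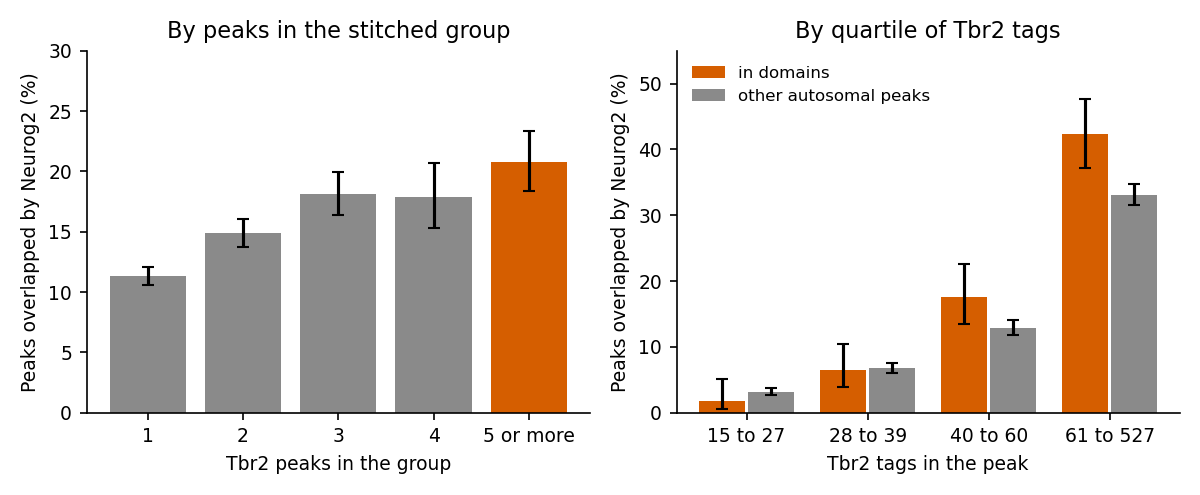
Share of Tbr2 peaks overlapped by a Neurog2 peak in percent (y axes, bars from 0, with 95% Wilson intervals). Left, by number of peaks in the stitched group, from 11.3% in isolated peaks to 20.8% in the domains (orange); right, by quartile of Tbr2 tags for members (orange) and other autosomal peaks (grey), which lie close together in the lower quartiles and apart in the highest, at 42.3% and 33.1%.

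The number of shared members differed from domain to domain. It overlapped at least 1 member in 113 of 163, 69.3% (61.9 to 75.9). No member was shared in 50 domains, 1 in 62, 2 in 29 and 3 or more in 22, up to 6 in 2 domains. These 22 domains held 87 of the 207 shared members, 42.0%. The spread that the share of 20.8% over all members would give by itself was not computed. These counts therefore do not show whether Neurog2 gathers in some domains. In no domain were all members shared, and in 12 more of them were shared than not. A domain of 5 peaks has several chances to meet a Neurog2 peak, and 49.3% (47.4 to 51.2) of the runs of 5 peaks outside domains contained a shared peak, beside 69.7% (58.7 to 78.9) of the 76 domains of 5.

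Domains with shared members held more Tbr2 tags than those without, but not more peaks at the median. The median number of peaks was 6 in both, and the median spans were 50.1 kb with and 51.4 kb without. The sum of Tbr2 tags had a median of 379 (348 to 409) in domains with a shared member and 261 (219 to 296) in those without, and the strongest member a median of 123 (112 to 140) and 85.5 (67 to 97). Across the 163 domains the number of shared members had a Spearman rho of 0.09 with the number of peaks, 0.00 with the span and 0.48 with the sum of Tbr2 tags. The mean number of shared members was 1.105 in domains of 5 peaks and 1 in those of 6. It was 1.708 in domains of 7 peaks and 1.905 in those of 8 or more. The 22 domains with 3 or more shared members had medians of 7 peaks and 56.4 kb. These are descriptions over domains of the same libraries.

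The most Neurog2 peaks on members, 6, were found in 4 domains, and 5 more domains had 5. Of the former, 3 are the large domains of chromosomes 2 and 4 described above. The other was on chromosome 8 at 87297754 to 87359351, with 7 members of 55, 77, 52, 41, 210, 147 and 94 tags. The member of 52 tags and the right-hand 3 were shared. The member of 52 had 34 Neurog2 tags, and those of 147 and 94 held 2 Neurog2 peaks each, with sums of 139 and 91 Neurog2 tags. The member of 210 Tbr2 tags held 71 Neurog2 tags.

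Strong Tbr2 binding also occurred in domains without Neurog2. The domain with most Tbr2 tags and no shared member, on chromosome 12 at 39753603 to 39801021, had 6 members of 72, 49, 37, 124, 94 and 160 tags. On chromosome 5 at 132430898 to 132507347 the members held 226, 57, 76, 31, 30, 84 and 26 tags. On chromosome 3 at 153777873 to 153874185 they held 49, 40, 21, 30, 84, 31 and 221, the last with a fold change of 50.2. On chromosome 13 at 83852661 to 83889923, 8 members held 23 to 84 tags. The chromosome 18 domain of 10 peaks completes the leading 5 of this kind. An absent Neurog2 peak means only that none passed the limits of the Neurog2 list, which was the shorter list.

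Where a domain had Neurog2, the peak lay mostly on its stronger members. The shares by rank of tags within the domain are over all 163 domains, including the 50 with no shared member. Of the strongest members 75 of 163 were shared, 46.0% (38.5 to 53.7). At rank 2 it was 50 of 163, 30.7% (24.1 to 38.1), at rank 3 it was 27, 16.6% (11.6 to 23.0), at rank 4 it was 23, 14.1% (9.59 to 20.3), and at rank 5 it was 15, 9.20% (5.66 to 14.6). Of the members of rank 6 or lower 17 of 182 were shared, 9.34% (5.91 to 14.4). The same order was seen in the runs outside domains, at 30.1%, 17.2%, 9.41%, 6.77% and 4.14%. In the 76 domains of 5 the shares were 46.1% (35.3 to 57.2), 35.5% (25.7 to 46.7), 11.8% (6.36 to 21.0), 10.5% (5.43 to 19.4) and 6.58% (2.84 to 14.49), so the first 2 ranks stood above the runs and the intervals of the lower ranks were wide.

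**Figure D5:**
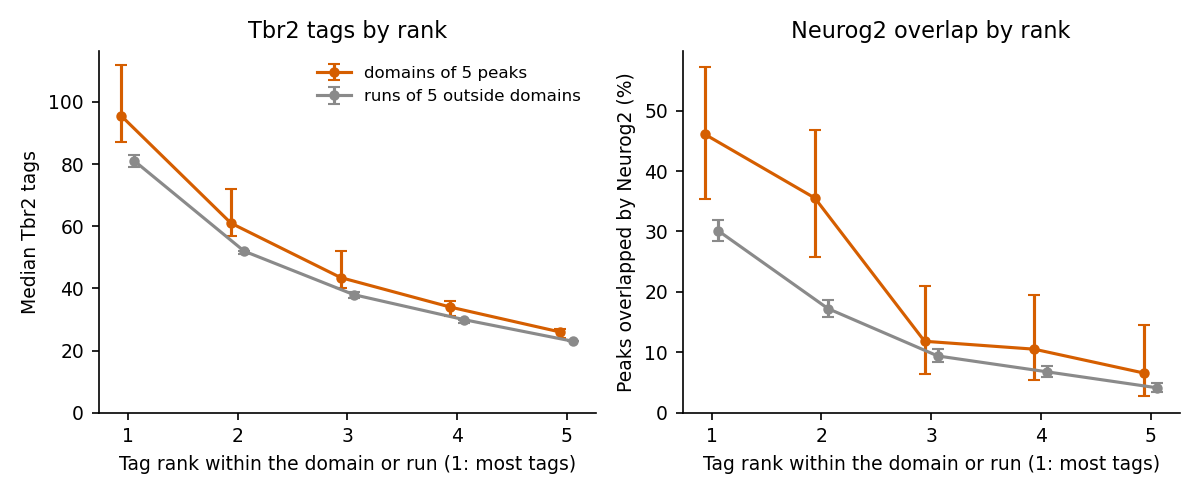
Median Tbr2 tags (left, with 95% order-statistic intervals) and share of peaks overlapped by Neurog2 in percent (right, with 95% Wilson intervals) by tag rank, for the 76 domains of 5 peaks (orange) and 2657 runs of 5 neighbouring peaks outside domains (grey). Tags fall from 95.5 to 26 in domains and from 81 to 23 in runs, and the Neurog2 share falls with rank in both.

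Of the 113 domains with Neurog2, which held 5 to 13 peaks, the strongest member was shared in 75, 66.4% (57.2 to 74.4). In those of exactly 5 peaks it was shared in 35 of 53, 66.0% (52.6 to 77.3). Beside this stood 61.1% (58.5 to 63.7) in the runs of 5 with a shared peak, a value inside the interval for domains of 5. For domains of all sizes, the share was 50% under the rule that midpoints lie within 200 bp. It was 54.0% with fold change in place of tags and 81.2% with gaps of up to 12500 bp. Where exactly 1 member was shared, it was the strongest in 32 of 62 domains. Shared members had a median of 80 tags and a width of 948 bp, and the others 40 tags and 729.5 bp. Inside a domain, the median tags of shared members exceeded those of unshared members in 96 of 113 domains, were below in 16 and equal in 1, with a median ratio of 1.79 (1.63 to 2.15). By fold change, shared members were higher in 88 of 113.

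In 38 domains Neurog2 was present but not on the strongest member. The best-ranked shared member had rank 2 in 19 of these, rank 3 in 9 and a lower rank in the others, down to rank 8. It had a median of 0.53 times the tags of the strongest, and the lowest such value was 0.168. The strongest members passed over in this way had a median of 109.5 tags (90 to 134). Where the strongest was shared it had 137 (120 to 156), and in domains with no shared member 85.5.

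The domain with the strongest member of all lay on chromosome 5 at 132250618 to 132301928. Its members held 88, 38, 301, 37, 39, 62 and 47 tags, and both Neurog2 peaks of the domain lay on the member of 301. The strongest member was shared in 75 of the 113 domains with Neurog2. Among domains with exactly 1 shared member, as here, it was shared in 32 of 62. In the domain on chromosome 9 at 118364273 to 118397192, named after its values were seen, 9 members held 185, 22, 31, 36, 87, 29, 35, 109 and 69 tags. Its Neurog2 peak, of 37 tags, lay on the member of 31, and the member of 185 tags had none.

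Neurog2 peaks inside domains lay almost entirely on the Tbr2 peaks. Of 231 in the spans of the domains, 222 overlapped a member, 96.1% (92.8 to 97.9), beside 82.5% of all autosomal Neurog2 peaks that lay on a Tbr2 peak. Domains have more Tbr2 peaks per kb than other sequence, and a span begins and ends with one, so these shares are not measured over like regions. The other 9 were in 8 domains, 441 to 9808 bp from the nearest member, with 12 to 53 tags. Neurog2 peaks on members had a median of 35 tags (33 to 40), against 32 (31 to 33) on other autosomal Tbr2 peaks, and median fold changes of 11.8 and 12.03.

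Tbr2 and Neurog2 midpoints lay close together at shared sites inside and outside domains. Midpoints of overlapping peaks were a median of 94 bp apart (74 to 114) at members and 73.5 bp (69 to 79.5) at other autosomal peaks. They were within 200 bp in 77.0% (71.1 to 82.1) and 83.7% (82.0 to 85.3) of pairs. These intervals barely meet, and the difference was not tested. Relative to the width of the Tbr2 peak the median offsets were 0.098 (0.082 to 0.121) and 0.088 (0.084 to 0.092), and members were wider. Of the shared members 15 of 207 held 2 Neurog2 peaks, 7.25% (4.44 to 11.6), against 4.93% (4.03 to 6.03) of other shared peaks holding more than 1.

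In the 51 domains with 2 or more shared members, successive shared members were a median of 12.49 kb apart (94 pairs). In 28 of these 51 domains the shared member with most Tbr2 tags also had most Neurog2 tags, 54.9% (41.4 to 67.7). Over the 207 shared members the tags of the factors had a Spearman rho of 0.32, as a description over sites. At an end of the domain stood 30.4% (24.6 to 37.01) of shared and 33.3% (30.1 to 36.7) of unshared members, so place within the domain did not separate them at this number of peaks.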

How the data were processed

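Per the submitters' processing notes, Bowtie 0.12.3, MACS 1.4 and build mm9 were used. Settings, duplicate handling and the control for peak calling are not stated in the sources at hand. The lists were exported from GeneProf, per the file headers. For each peak the authors deposited the position and, in a text field, the number of tags, p-value, FDR and fold change, each used as given. The deposited score column is 750 in every row and was not used. The largest p-value was 9.98e-06 for Tbr2 and 8.65e-07 for Neurog2, so the lists end at different limits.

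Stitching, overlaps and intervals were computed in Python 3.11.15 with pandas 2.3.3 and scipy 1.17.1, and tested on simulated data with planted domains. Ties in tag rank (3 domains at the first rank) went to the left-most peak. Tag and Neurog2 values were compared with those of other autosomal peaks without a test. Named domains were the 8 with most peaks, the 5 with most Neurog2 peaks on members, the 3 widest and narrowest, the 3 with highest and lowest tag ratio, the 5 with most tags and no shared member, and that with the strongest member. Ties were settled by the higher sum of Tbr2 tags, which chose 1 of 6 domains with 9 peaks and 1 of 5 with 5 Neurog2 peaks on members. Members, rules and lists were chosen with earlier results of these data known. Alternatives changed the stitching, the minimum number of peaks, the lists, the overlap rule and the measure of strength. The planned gene annotation, gene lists and motif counts need mm9 sequence or annotation, which was not used here.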

Additional observations from a re-analysis of the deposited data

How the results depend on the processing

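In all, 14 alternatives gave 60 recomputed values, of which 36 stayed within the 95% interval of the reported value, or for the number of domains within 1.5 times, and 24 did not. Joining across at most 12500 bp left 44 domains and across at most 50 kb 401. There were 356 with at least 4 peaks and 87 with at least 6. Under the same 4 settings the median span was 25.2, 93.0, 36.7 and 56.8 kb, and with Tbr2 peaks under 1 kb apart merged it was 54.7 kb. These follow from the settings, since each changes what is joined or how many peaks a group must hold to be kept. The tag ratio was 3.54 with at least 4 peaks and 4.91 with at least 6, and the ratio of strongest to weakest was 3.21 by fold change, 7.90 by -log10 of the p-value and 2.48 by tags per 100 bp. The Neurog2 share of members was 23.7% when joined across at most 12500 bp, 16.9% with midpoints within 200 bp, 24.0% with Neurog2 within 1 kb and 12.6% with the stronger part of the Neurog2 list (p-value at or below its median). Members exceeded other autosomal peaks in all 11 alternatives under which this share was recomputed, by 5.01 to 9.85 percentage points. None of these alternatives matched members and others on tags or width. Under the weightings described above, which are not among them, the share of other peaks was 14.3% by fold change and up to 17.3% by tags, against 20.8% of members. Domains with Neurog2 were 58.4% with at least 4 peaks, 61.4% with midpoints within 200 bp and 50.3% with the stronger part of the Neurog2 list. The strongest member was shared in 81.2% of 32 domains when joined across at most 12500 bp, in 50% with midpoints within 200 bp and in 54.0% by fold change. The cause was not tested for the values on strength and overlap. No paired analysis was possible because each factor has 1 library and no result comes from a test.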

Other observations

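Chromosome 8 had the highest share of shared members of the 19 autosomes. Of its 65 members 26 overlapped a Neurog2 peak, 40% (95% Wilson interval 29.0 to 52.1), in 10 of its 11 domains, while 13.8% (11.5 to 16.5) of its Tbr2 peaks outside domains did. The next highest was chromosome 16, at 32.0% of 25 members (17.2 to 51.6). At the other end were chromosome 14, with 9.52% of 63 members (4.44 to 19.3) against 14.1% outside domains, and chromosomes 12 and 18, each with 11.6% of 43 members. Median member tags were 52 on chromosome 8, 67 on chromosome 16 and 41 on chromosome 14. Without chromosome 8, 19.4% of members (17.0 to 22.1) were shared, against 13.5% of other peaks. The chromosome was singled out after its values were seen, and no test was made.

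Of the 12 domains in which more members were shared than not, 4 lay on chromosome 8. The fullest of these, at 122788744 to 122833789, had 6 members of 78, 49, 30, 53, 73 and 90 Tbr2 tags, and all but that of 53 were shared. It was followed after 72.3 kb by a domain of 7 members with 3 shared, at 122906110 to 122963724, and after a further 48.3 kb by a domain of 5 with 1 shared, at 123012015 to 123045795. The Neurog2 tags of the 3 domains summed to 221, 99 and 81. Chains like this were few: successive domains of a chromosome were under 100 kb apart in 6 cases and under 250 kb in 15, and the median distance was 8536.6 kb.

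On chromosome 15, at 82763174 to 82814305, 4 of 5 members were shared, with Tbr2 tags of 59, 84, 120 and 44 and Neurog2 tags of 42, 60, 68 and 35 in the same order. The unshared member had 61 Tbr2 tags, more than 2 of the shared ones. On chromosome 5, at 125609065 to 125696706, 5 of 7 members were shared, and 2 further Neurog2 peaks lay between members. These domains were also named after their values were seen.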
